A study of Mus musculus with 6 samples.

Results

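Nfe2l2, which encodes the transcription factor Nrf2, was followed in mouse gastrocnemius with its sensor gene Keap1, its targets Nqo1, Hmox1, Gclc, Gclm, Txnrd1 and Srxn1, and the metallothionein genes Mt1 and Mt2. These 10 genes were taken by symbol from the 19458 genes listed for every library. The selection rule used no expression value, but earlier results of these data were known when the genes were chosen. All 10 were found, and all 10 passed the filter on low counts, which left 12774 genes. The muscle came from C57BL/6 mice aged 9 weeks. The knockout group (tmem182-/-) and the wild-type group had 3 libraries each, and the comparison asks how muscle RNA differs without Tmem182, a membrane protein of muscle. The labels do not say how the allele was made, whether it acts in muscle alone, what sex the mice were, or whether each library is a separate mouse. P-values therefore cover the spread among these libraries, part of which may be technical.

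Nrf2 is held in the cytosol by Keap1, which passes it to a cullin 3 ubiquitin ligase for destruction. Oxidants and electrophiles modify cysteines of Keap1, and Nrf2 then reaches the nucleus, where with small Maf proteins it binds antioxidant response elements of genes for glutathione synthesis, thioredoxin recycling and the breakdown of quinones and heme. Metallothioneins are small cysteine-rich proteins that bind zinc and copper. Their genes respond to zinc through the factor MTF-1 at metal response elements, and also to glucocorticoids and oxidative stress. In skeletal muscle the Nrf2 targets are known for defence against oxidants made during contraction, and the metallothioneins for induction in atrophy.

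Tmem182 was at 2.17 to 6.23 FPKM (a level per unit of transcript length and of sequencing depth) in the knockout and 121.0 to 147.5 FPKM in wild type. This follows the genotype labels, while the source labels of knockout libraries 2 and 3 name tmem183 and tmem184. Depth was 16212341 to 18672630 expected counts per library. The protocol text speaks of cultured myoblasts or myotubes, but all 7 markers of mature myofibres were detected in every library, with Acta1 at 27926 to 34045 FPKM. Knockout library 1 stood apart. It was the lowest of the 6 libraries for 7 of 7 myofibre markers and the highest for 10 of 10 macrophage markers and 5 of 5 tested adipocyte markers, on FPKM and on TMM-scaled CPM (CPM being counts relative to a library total adjusted by edgeR's TMM factor). Over all genes tested it was the highest for 61.5% on FPKM and for 29.9% on TMM-scaled CPM. The share for which it was the lowest was not computed. Its TMM factor was 1.19, against 0.933 to 1.04 elsewhere. FPKM carry no such factor: over all genes tested, knockout library 1 exceeded the median of the other 5 libraries by a median of 0.22 on log2(FPKM + 1) and of 0.02 on log2 TMM-scaled CPM. TMM-scaled CPM are added to FPKM where they change what is said of a gene's highest or lowest libraries.

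The sequences before Srxn1, Mt1 and Mt2 are shown because these 3 genes were highest in knockout library 1 on both scales. Each is the 250 bases before a RefSeq start (GRCm38.p6, plus strand), at chr2:152105274-152105523, chr8:94178839-94179088 and chr8:94172368-94172617. Capitals mark matches on either strand to an antioxidant response element core (TGACNNNGC or TGAGNNNGC) or a metal response element core (TGCACNC or TGCGCNC).
Srxn1: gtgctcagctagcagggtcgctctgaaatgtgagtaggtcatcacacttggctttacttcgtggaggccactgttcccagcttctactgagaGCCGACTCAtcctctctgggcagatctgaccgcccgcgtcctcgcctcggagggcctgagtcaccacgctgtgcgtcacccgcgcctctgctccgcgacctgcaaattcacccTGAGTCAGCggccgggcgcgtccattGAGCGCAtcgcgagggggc
Mt1: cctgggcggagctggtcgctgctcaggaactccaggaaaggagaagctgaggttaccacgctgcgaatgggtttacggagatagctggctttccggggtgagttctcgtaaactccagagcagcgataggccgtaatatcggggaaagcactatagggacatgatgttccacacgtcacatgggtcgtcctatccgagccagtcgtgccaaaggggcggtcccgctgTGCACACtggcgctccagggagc
Mt2: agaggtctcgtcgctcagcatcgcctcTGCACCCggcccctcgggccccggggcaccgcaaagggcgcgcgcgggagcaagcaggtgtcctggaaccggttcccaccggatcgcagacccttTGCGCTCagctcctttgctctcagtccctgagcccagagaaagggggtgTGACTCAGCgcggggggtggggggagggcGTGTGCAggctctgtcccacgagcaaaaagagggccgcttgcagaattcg

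Srxn1 had 2 antioxidant response element cores, TGAGTCGGC on the minus strand and TGAGTCAGC on the plus strand, and 1 metal response element core. Mt2 had 1 antioxidant response element core, TGACTCAGC, and 3 metal response element cores. The Mt1 window had no antioxidant and 1 metal response element core, but it leaves out sequence next to Mt1 starts that lie inside the RefSeq start. The first letters of TGAGTCAGC and of TGACTCAGC also spell an AP-1 site. Among all 32851 windows of this length, 21.4% held a metal response element core and 1.26% held 3 or more. Of the 10 genes, 8 had a window (Hmox1 and Gclc had none), with 10 windows in all because Txnrd1 had 3.

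The search for antioxidant response elements was changed after the sequences were seen. With TGACNNNGC alone, 4 of the 10 windows had a match (those of Nfe2l2, Gclm and Mt2 and 1 of the 3 of Txnrd1), as did 10.2% of all windows, and Srxn1 had none. TGAGNNNGC was then added, which gave 5 of the 10 windows, 23.0% of all windows with a match and 3.18% with 2 or more. Both matches in Srxn1 rest on that addition. GENCODE M21 starts some Mt1 transcripts 122 and 152 bases, and the Mt2 transcripts 46 and 242 bases, inside the RefSeq start, and sequence next to those starts was not searched.

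None of the 10 genes differed between the groups by edgeR's quasi-likelihood test at an adjusted p of 0.05. Over all genes that test called 0.00783% (Tmem182 alone). An unadjusted p under 0.05 was found for 0 of the 10 genes and for 3.55% of all genes, and DESeq2 called 0 of the 10. The fitted log2 fold change, knockout over wild type, was above 0 for 9 genes and below 0 for Keap1. Its median was 0.16 for the 10 genes and 0.0046 over all genes, of which 51.1% were above 0. The split became 7 against 3 without knockout library 1 (median 0.03) or without knockout library 2, and 6 against 4 without wild-type library 1. The lowest adjusted p of the 10 genes was 0.994 in edgeR, and 0.517 (Gclc, limma) over 15 alternative fits.

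**Figure D1:**
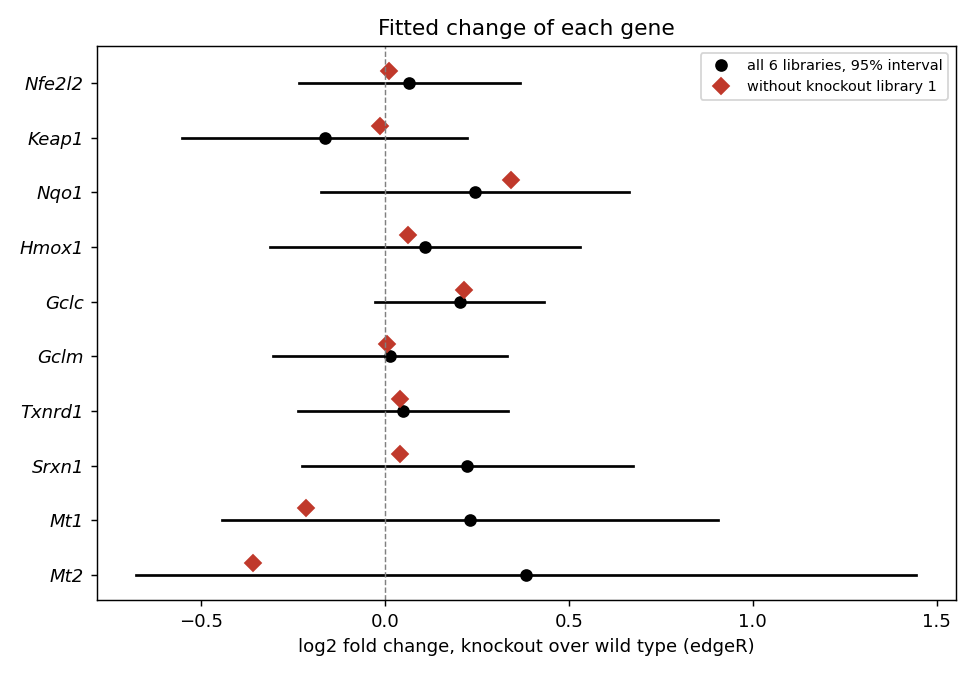
Fitted log2 fold change, knockout over wild type, of each of the 10 genes (horizontal axis), as black points with 95% intervals over 3 against 3 libraries and as red diamonds without knockout library 1. Every interval crosses 0, and the diamonds of Mt1 and Mt2 lie at -0.22 and -0.36, across 0 from their points.

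In wild-type muscle Keap1 was the most abundant of the 10 transcripts on FPKM, a per-length scale. Wild-type means were 26.9 ± 2.26 FPKM for Keap1, 19.2 ± 1.36 FPKM for Txnrd1, 16.9 ± 1.24 FPKM for Mt1 and 11.7 ± 2.29 FPKM for Nfe2l2 (SD, n = 3). Lower down stood Gclm at 7.65 ± 0.861 FPKM, Nqo1 at 6.97 ± 0.280 FPKM, Srxn1 at 6.43 ± 0.555 FPKM, Mt2 at 4.47 ± 0.933 FPKM, Hmox1 at 4.15 ± 0.771 FPKM and Gclc at 3.85 ± 0.185 FPKM (SD, n = 3). Wild-type ranges of neighbours in this order overlapped for Txnrd1 and Mt1, Gclm and Nqo1, Nqo1 and Srxn1, Mt2 and Hmox1, and Hmox1 and Gclc. By knockout means Mt1 stood above Txnrd1 and Nqo1 above Gclm.

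**Figure D2:**
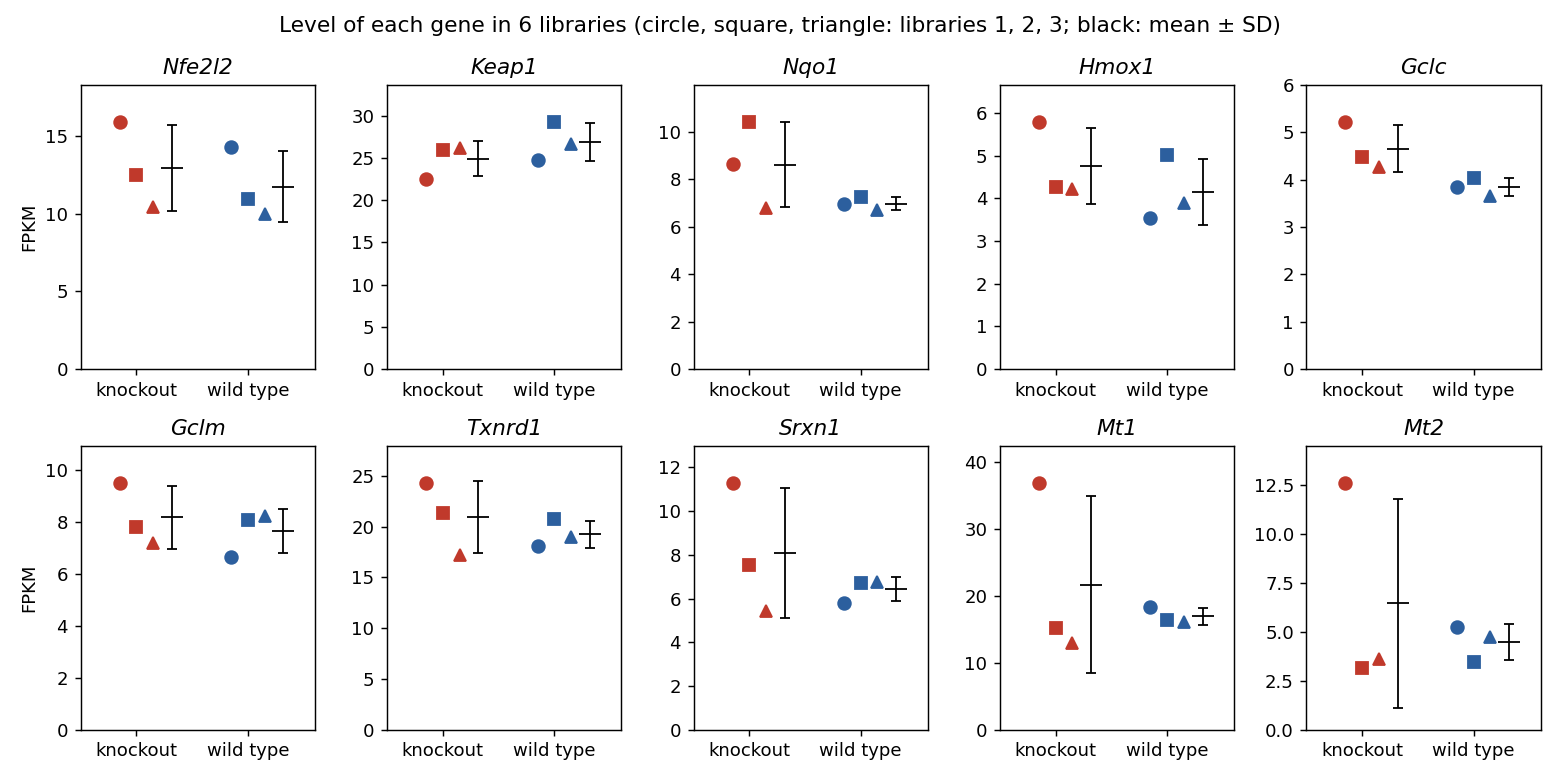
FPKM (vertical axes, from 0) of each gene in 3 knockout (red) and 3 wild-type (blue) libraries, with circle, square and triangle for libraries 1, 2 and 3 and the mean ± SD in black. Gclc alone has every red point above every blue one, and knockout library 1 stands far above the rest for Mt1 (36.9 FPKM) and Mt2 (12.6 FPKM).

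Nfe2l2 (Entrez 18024, chr2:75675513-75704641, minus strand, GRCm38) read 15.9, 12.5 and 10.4 FPKM in knockout libraries 1, 2 and 3, and 14.3, 10.9 and 9.96 FPKM in wild-type libraries 1, 2 and 3. The groups overlapped over nearly their whole range, and the highest library was knockout library 1 on FPKM but wild-type library 1 on TMM-scaled CPM (33.6 and 34.4). Its fitted log2 fold change was 0.07 (SE 0.13, 95% interval -0.23 to 0.37). Keap1 (Entrez 50868, chr9:21229730-21239361, minus strand) read 22.5, 26.0 and 26.3 FPKM in knockout libraries 1, 2 and 3, and 24.8, 29.3 and 26.7 FPKM in wild-type libraries 1, 2 and 3. Knockout library 1 was the lowest of the 6, and the rest overlapped. Keap1 had a fitted log2 fold change of -0.16 (SE 0.17, 95% interval -0.55 to 0.22), and of -0.01 without knockout library 1. The antisense gene Gm16754 overlaps Keap1 by gene span, introns included. No source used here says whether counting used strand, so whether its reads entered the Keap1 counts is not known. Factor to sensor, the ratio of FPKM was 0.705, 0.479 and 0.396 in the knockout libraries against 0.577, 0.372 and 0.373 in the wild-type libraries, with overlapping groups.

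Nqo1 and Hmox1 act on quinones and heme. Nqo1, a quinone reductase widely used as a marker of Nrf2 activity (Entrez 18104, chr8:107388225-107403206, minus strand), read 8.64, 10.4 and 6.81 FPKM in knockout libraries 1, 2 and 3, and 6.96, 7.26 and 6.70 FPKM in wild-type libraries 1, 2 and 3. Knockout libraries 1 and 2 lay above wild type on FPKM, but on TMM-scaled CPM knockout library 2 alone did, at 16.8 against 10.3 to 11.7 in the other 5. The fit gave Nqo1 a log2 fold change of 0.25 (SE 0.18, 95% interval -0.17 to 0.67), and of 0.02 without knockout library 2. Hmox1, heme oxygenase 1, which frees iron from heme (Entrez 15368, chr8:75093621-75100589, plus strand), read 5.79, 4.26 and 4.21 FPKM in knockout libraries 1, 2 and 3, and 3.55, 5.02 and 3.88 FPKM in wild-type libraries 1, 2 and 3. On TMM-scaled CPM wild type held both the highest library, at 8.21, and the lowest, at 5.34. Hmox1 had a log2 fold change of 0.11 (SE 0.18, 95% interval -0.31 to 0.53), and of -0.03 without wild-type library 1.

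Gclc and Gclm encode the catalytic and the modifier subunit of glutamate-cysteine ligase, the rate-limiting enzyme of glutathione synthesis. Gclc (Entrez 14629, chr9:77754535-77794485, plus strand) read 5.22, 4.49 and 4.26 FPKM in knockout libraries 1, 2 and 3, and 3.85, 4.03 and 3.66 FPKM in wild-type libraries 1, 2 and 3. It was the 1 gene of the 10 whose groups did not overlap, and on TMM-scaled CPM they were apart too, at 14.6 to 15.3 against 12.4 to 13.6. The knockout group lay wholly above the wild-type group for 5.86% of all genes tested on FPKM and for 4.67% on TMM-scaled CPM. The opposite order held for 1.70% of all genes on FPKM and for 0 of the 10. The fitted log2 fold change of Gclc was 0.20 (SE 0.098, 95% interval -0.03 to 0.43, edgeR adjusted p = 0.994), and 0.168 to 0.265 over 14 alternative fits. Gclc also varied least, with a within-group SD of 0.054 on log2 CPM, below the 0.092 that counting noise alone gives and smaller than that of 97.7% of all genes. Gclm (Entrez 14630, chr3:122245557-122270732, plus strand) read 9.51, 7.81 and 7.20 FPKM in knockout libraries 1, 2 and 3, and 6.66, 8.07 and 8.22 FPKM in wild-type libraries 1, 2 and 3. Knockout library 1 was the highest on FPKM, while on TMM-scaled CPM wild type held both the highest library, at 18.3, and the lowest, at 13.2. Its groups overlapped, with a log2 fold change of 0.01 (SE 0.14, 95% interval -0.30 to 0.33). Gclm to Gclc, the ratio of FPKM was 1.82, 1.74 and 1.69 in the knockout libraries against 1.73, 2.002 and 2.25 in the wild-type libraries. The antisense gene Gm17494 and the pseudogene Gm6061 overlap Gclm.

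Txnrd1, a thioredoxin reductase, and Srxn1, sulfiredoxin, which repairs over-oxidised peroxiredoxins, keep thiol peroxidases working. Txnrd1 (Entrez 50493, chr10:82833951-82897712, plus strand) read 24.3, 21.3 and 17.2 FPKM in knockout libraries 1, 2 and 3, and 18.0, 20.7 and 18.95 FPKM in wild-type libraries 1, 2 and 3. On FPKM the knockout held both the highest and the lowest library. On TMM-scaled CPM the lowest was wild-type library 1, at 58.6 against 62.1 to 75.8 in the other 5. The groups overlapped, and the fit gave 0.05 on the log2 scale (SE 0.12, 95% interval -0.24 to 0.34). The antisense genes Gm38560 and Gm47073 and the same-strand gene Eid3 overlap Txnrd1. Srxn1 (Entrez 76650, chr2:152105516-152111376, plus strand) read 11.3, 7.52 and 5.42 FPKM in knockout libraries 1, 2 and 3, and 5.79, 6.73 and 6.77 FPKM in wild-type libraries 1, 2 and 3. Knockout libraries 1 and 2 lay above all wild-type libraries on both scales. Knockout library 3 lay below them on FPKM, but on TMM-scaled CPM it was at 16.3, within the wild-type range of 15.7 to 20.5. For Srxn1 the fit gave 0.23 on the log2 scale (SE 0.19, 95% interval -0.23 to 0.68), and 0.04 without knockout library 1.

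The metallothioneins varied most. Mt1 (Entrez 17748, chr8:94179082-94180327, plus strand) read 36.9, 15.2 and 13.0 FPKM in knockout libraries 1, 2 and 3, and 18.4, 16.4 and 16.1 FPKM in wild-type libraries 1, 2 and 3. Knockout library 1 was far above the other 5, while knockout libraries 2 and 3 were below all of wild type. On TMM-scaled CPM the wild-type libraries lay within 9.20 to 9.24, closer together than counting noise alone gives (SD 0.0034 against 0.11, log2), and knockout library 1 was at 16.5. Mt1 had a log2 fold change of 0.23 (SE 0.29, 95% interval -0.44 to 0.91), and of -0.22 without knockout library 1 (edgeR adjusted p = 0.904). Mt2 (Entrez 17750, chr8:94172664-94173568, plus strand) lies 5513 bases from Mt1 on the same strand. It had the fewest counts of the 10 genes, with 108, 30 and 34 in knockout libraries 1, 2 and 3 and 49, 34 and 45 in the wild-type libraries. Those counts correspond to 12.6, 3.16 and 3.59 FPKM and to 5.26, 3.44 and 4.71 FPKM, so knockout library 1 again stood alone. Mt2 had a log2 fold change of 0.38 (SE 0.46, 95% interval -0.68 to 1.45), and of -0.36 without knockout library 1 (edgeR adjusted p = 0.907). The antisense gene Gm45774 overlaps Mt2.

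The contrasts of knockout library 1 with the other libraries were chosen after the values were seen and are descriptions. On TMM-scaled CPM it exceeded the median of the other 5 libraries 2.69-fold for Mt2, 1.78-fold for Mt1 and 1.36-fold for Srxn1, ratios that 1.57%, 6.73% and 17.9% of all genes tested surpassed. Keap1 had a ratio of 0.693, which 93.6% of all genes tested surpassed. Across the 6 libraries TMM-scaled CPM spanned 3.09-fold for Mt2 and 2.22-fold for Mt1, and from 1.23-fold (Gclc) to 1.71-fold (Srxn1) for the other 8 genes. Within groups the SD of log2 CPM was 0.66 for Mt2 and 0.43 for Mt1, and 5.04% and 14.7% of all genes had a larger one. Mt1 to Mt2, the ratio of FPKM was 2.93, 4.79 and 3.63 in the knockout libraries against 3.49, 4.76 and 3.42 in the wild-type libraries, with the lowest ratio in knockout library 1. Knockout library 1 was the highest of the 6 for 8 of the 10 genes on FPKM, as for 61.5% of all genes. On TMM-scaled CPM it was the highest for 3 of the 10, a share like the 29.9% of all genes.

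**Figure D3:**
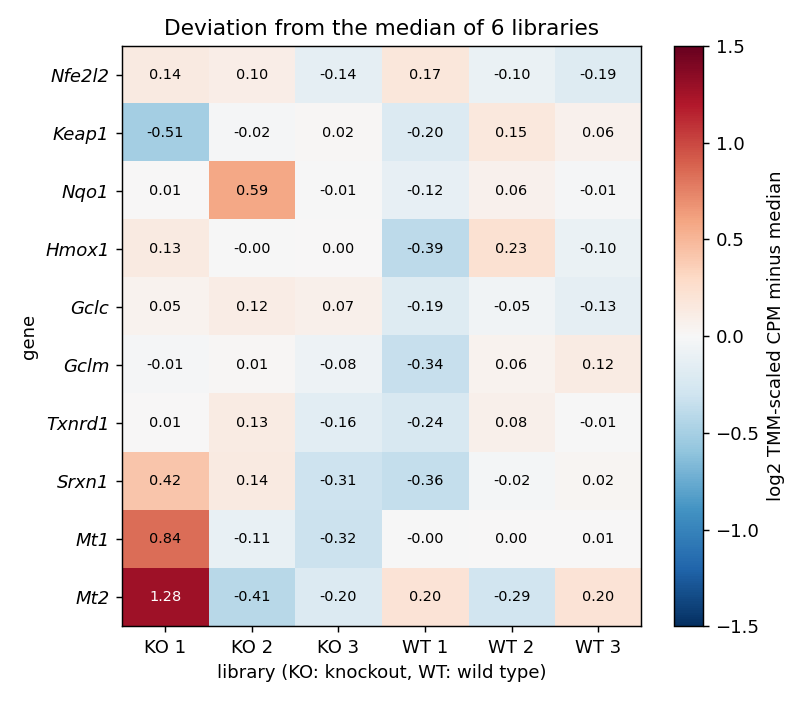
Deviation of each gene (rows) in each library (columns) from that gene's median over the 6 libraries, in log2 TMM-scaled CPM, with red above and blue below. Knockout library 1 is at 1.28 for Mt2, 0.84 for Mt1 and -0.51 for Keap1, and knockout library 2 is at 0.59 for Nqo1.

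Genes with the most similar pattern were sought for Mt1 and Mt2, which spanned at least 1 on log2 CPM. Likeness was the root mean square distance on log2 CPM between deviations from each gene's own mean over the 6 libraries, among 10329 other genes with a mean of at least 1 FPKM. Nearest to Mt1 was Slc39a14, which encodes the zinc, iron and manganese importer ZIP14, at a distance of 0.038. Slc39a14 read 6.33, 2.64 and 2.16 FPKM in knockout libraries 1, 2 and 3, and 3.10, 2.86 and 2.68 FPKM in wild-type libraries 1, 2 and 3, which repeats the order of Mt1. Slc25a5, a mitochondrial ADP/ATP carrier, followed at 0.064 and LOC108167440 at 0.076. This order depends on the scale: on log2(FPKM + 1) Slc25a5 was nearer to Mt1, at 0.056, than Slc39a14, at 0.077. Nearest to Mt2 were Sulf2, an extracellular heparan sulfatase, at 0.12, Cd68, a lysosomal protein of macrophages, at 0.13, and Mrm1, a mitochondrial RNA methyltransferase, at 0.15. Cd68 read 5.11, 1.44 and 1.72 FPKM in knockout libraries 1, 2 and 3, and 2.07, 1.43 and 1.71 FPKM in wild-type libraries 1, 2 and 3.

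By summed FPKM, markers of other cell types were also highest in knockout library 1. On TMM-scaled CPM it was the highest library for 10 of 10 macrophage, 5 of 5 tested adipocyte and 5 of 5 tested erythroid markers. The same held for 5 of 6 Schwann cell, 5 of 6 fibroblast and 5 of 7 endothelial markers, beside 29.9% of all genes. The 10 macrophage markers summed to 74.9 FPKM in knockout library 1, to 23.1 and 32.7 FPKM in the other knockout libraries, and to 20.3 to 29.3 FPKM in wild type. Sums in knockout library 1 against ranges over the other 5 were 70.2 against 9.35 to 26.6 FPKM for adipocyte markers and 304.6 against 19.9 to 200.2 FPKM for Schwann cell markers. They were 326.4 against 129.1 to 237.9 FPKM for endothelial, 378.4 against 159.1 to 348.8 FPKM for fibroblast and 1896 against 444.5 to 1100 FPKM for erythroid markers. No marker was at 0 in any library. Slow fibre genes, 10 in all, summed to 2832, 1904 and 112.7 FPKM in knockout libraries 1, 2 and 3, and to 867.0, 92.3 and 708.2 FPKM in wild-type libraries 1, 2 and 3. The part of these cells in the metallothionein values was not tested, and in bulk muscle more cells of a type and more RNA per cell cannot be told apart.

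**Figure D4:**
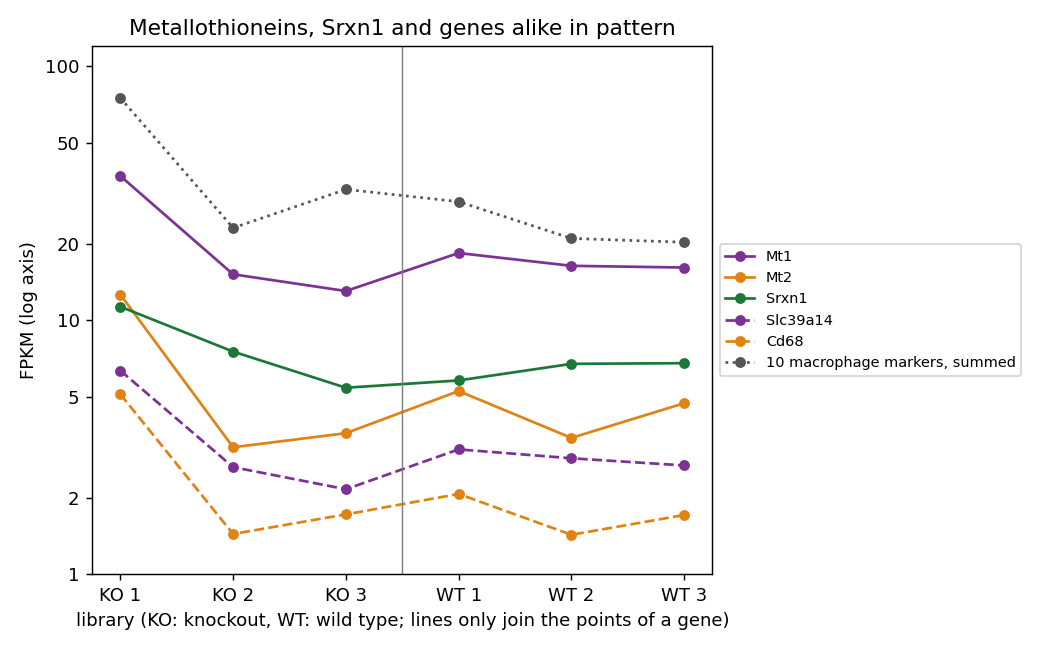
FPKM (log axis) of Mt1, Mt2, Srxn1, Slc39a14, Cd68 and 10 summed macrophage markers in each of the 6 libraries (horizontal axis), with lines that only join the points of a gene. Every line is highest in knockout library 1, where Mt1 is at 36.9, Mt2 at 12.6, Slc39a14 at 6.33, Cd68 at 5.11 and the macrophage sum at 74.9 FPKM.

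The wider pathway was read from 6 lists with 133 other genes, of which 117 were tested and 0 were called, by edgeR or by DESeq2. An unadjusted p under 0.05 was found for 6 genes higher and 2 lower in the knockout, or 6.84% beside 3.55% of all genes, and the median log2 fold change was 0.03. Of the partners and regulators of Nrf2, 16 were tested (7 higher, 9 lower, median -0.04) and none had such a p. Without knockout library 1 their split was 10 higher and 6 lower. The smallest p belonged to Syvn1, a ubiquitin ligase for Nrf2, with a log2 fold change of -0.15 (SE 0.11), and to Bach1, a repressor at Nrf2 binding sites, with 0.15 (SE 0.14). Cul3, the cullin of the Keap1 ligase, read 71.9, 84.2 and 83.4 FPKM in knockout libraries 1, 2 and 3, and 69.4, 70.5 and 70.2 FPKM in wild-type libraries 1, 2 and 3. Its groups were apart on FPKM but overlapped on TMM-scaled CPM, with a log2 fold change of 0.15 (SE 0.17). On FPKM the knockout lay wholly above wild type for 2 of the 16, beside 5.86% of all genes. It lay wholly below for 0, beside 1.70%. On TMM-scaled CPM it lay wholly above for 0 of the 16, beside 4.67% of all genes, and wholly below for 1. The share of all genes wholly below was not computed on TMM-scaled CPM.

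Of 21 other glutathione genes 12 were tested (4 higher, 8 lower, median -0.03), and without knockout library 1 the split turned to 10 higher and 2 lower (median 0.08). Mgst1, a membrane-bound glutathione transferase, read 72.7, 21.1 and 15.9 FPKM in knockout libraries 1, 2 and 3, and 19.3, 8.56 and 15.2 FPKM in wild-type libraries 1, 2 and 3. Knockout library 1 was again far above the rest, and the fitted change of Mgst1 was 1.197 on the log2 scale (SE 0.50) with it and 0.41 without it. Gsr, glutathione reductase, stayed within 5.59 to 6.40 FPKM in the 6 libraries. Slc7a11, the cystine importer that Nrf2 can induce, was at 0.12 FPKM or less and was not tested. Of 27 redox, NADPH and iron genes 24 were tested (19 higher, 5 lower, median 0.10). Knockout library 1 was the highest library for 13 of these 24 on TMM-scaled CPM, beside 29.9% of all genes. In the other lists it was the highest for 2 of 16 partners and regulators, 1 of 12 glutathione genes and 9 of 25 antioxidant enzymes. For metal response and glucocorticoid-responsive genes the counts were 4 of 23 and 5 of 19. On the same scale it was the lowest library for 8 of 12 glutathione genes and 7 of 16 partners and regulators. The counts were 3 of 24 redox, NADPH and iron genes and 4 of 25 antioxidant enzymes. They were 5 of 23 metal response and 5 of 19 glucocorticoid-responsive genes. The share of all genes lowest in this library was not computed. Without knockout library 1 the 24 redox, NADPH and iron genes split into 14 higher and 10 lower (median 0.03). Prdx1, a peroxiredoxin and Nrf2 target, read 99.6, 75.5 and 75.8 FPKM in knockout libraries 1, 2 and 3, and 66.3, 67.1 and 68.6 FPKM in wild-type libraries 1, 2 and 3. Its groups were apart on both scales, with a log2 fold change of 0.23 (SE 0.098, edgeR adjusted p = 0.994). The knockout lay wholly above wild type for 2 of the 24 on FPKM, beside 5.86% of all genes. On TMM-scaled CPM this held for 1 of the 24, beside 4.67%. Blvra, a biliverdin reductase that acts after Hmox1, had groups apart on FPKM (5.88 to 6.10 against 3.71 to 4.99 FPKM) that overlapped on TMM-scaled CPM.

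All 25 antioxidant enzymes outside those lists were tested (17 higher, 8 lower, median 0.08), and the split was 12 higher and 13 lower without knockout library 1. Msrb1, a selenoprotein that reduces oxidised methionine, read 160.2, 139.2 and 120.5 FPKM in knockout libraries 1, 2 and 3, and 117.3, 102.5 and 106.2 FPKM in wild-type libraries 1, 2 and 3. Its groups were apart on both scales, with a log2 fold change of 0.29 (SE 0.096, edgeR adjusted p = 0.994). On FPKM the knockout lay wholly above wild type for 2 of the 25, beside 5.86% of all genes. It lay wholly below for 0, beside 1.70%. On TMM-scaled CPM it lay wholly above for 1 of the 25, beside 4.67% of all genes, and wholly below for 1. The share of all genes wholly below was not computed on TMM-scaled CPM. Gpx3, a secreted glutathione peroxidase, was at 253.3 FPKM in knockout library 1 and at 76.2 to 107.5 FPKM in the other 5. Its log2 fold change was 0.49 (SE 0.33), and -0.05 without that library.

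Of 26 metal response genes 23 were tested (11 higher, 12 lower, median -0.01), with 10 higher and 13 lower when knockout library 1 was left out. Mtf1, which encodes MTF-1, stayed within 3.53 to 4.73 FPKM, and Slc30a1, the zinc exporter that MTF-1 controls, within 1.12 to 1.66 FPKM. Their log2 fold changes were -0.13 (SE 0.12) and 0.02 (SE 0.14). Mt3 was at 0.77 to 2.06 FPKM, with 7 to 17 counts per library. Slc30a2, another zinc transporter, had the smallest unadjusted p of the 6 lists and read 14.0, 11.9 and 10.97 FPKM in knockout libraries 1, 2 and 3, and 7.16, 9.32 and 8.69 FPKM in wild-type libraries 1, 2 and 3. Its groups were apart on both scales, with a log2 fold change of 0.47 (SE 0.14, edgeR adjusted p = 0.994). Genes named for a small p tend to have groups apart, so this adds no support. On FPKM the knockout lay wholly above wild type for 2 of the 23, beside 5.86% of all genes. It lay wholly below for 0, beside 1.70%. On TMM-scaled CPM it lay wholly above for 1 of the 23, beside 4.67% of all genes, and wholly below for 1. The share of all genes wholly below was not computed on TMM-scaled CPM. Ccs, the copper chaperone of Sod1, had a log2 fold change of -0.34 (SE 0.14). Its knockout group lay wholly below wild type on TMM-scaled CPM, at 6.64 to 7.91 against 8.48 to 10.3, but overlapped on FPKM.

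Glucocorticoid-responsive genes, a list of 19 that includes Mt1 and Mt2, were all tested (10 higher, 9 lower, median 0.03). Leaving out knockout library 1 gave 9 higher and 10 lower (median -0.12). Tsc22d3, a widely used marker of glucocorticoid action, read 53.8, 42.5 and 66.6 FPKM in knockout libraries 1, 2 and 3, and 64.95, 76.1 and 57.9 FPKM in wild-type libraries 1, 2 and 3. Knockout library 1 was below all of wild type for Tsc22d3, and knockout library 2 was lower still. The part of glucocorticoids in the metallothionein values was not tested. Fkbp5, another such marker, was highest in knockout library 1, at 18.98 FPKM against 10.7 to 15.8 FPKM in the other 5. Fbxo32, a ubiquitin ligase of atrophy, was at 32.3 to 70.2 FPKM in the knockout and 19.9 to 31.6 FPKM in wild type, with a log2 fold change of 0.89 (SE 0.30, edgeR adjusted p = 0.994). Pdk4, a kinase induced by fasting, ranged from 12.2 to 148.6 FPKM in the knockout and from 8.80 to 27.7 FPKM in wild type. Its log2 fold change was 1.91 (SE 0.76), and 0.97 with the mean log2 CPM of the 10 slow fibre genes as a covariate. That covariate fit gave 0.0762 for Mt1 and 0.164 for Mt2. Per1, of the circadian clock, had a fitted change of -0.59 on the log2 scale (SE 0.21).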

How the data were processed

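RNA from gastrocnemius was sequenced in 3 knockout and 3 wild-type libraries, grouped by title and genotype. The deposited tables give an expected count and an FPKM per gene, per the file headers. Expected counts were not whole for 26.2% to 27.5% of genes. The submitters' processing notes list GRCm38, RSEM 1.2.12, HISAT2 2.0.4 and Bowtie2 2.2.5, with roles, annotation and strand setting not given in the sources used here.

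Counts were rounded, filtered (filterByExpr, minimum count 10), TMM-scaled and tested by edgeR 4.0.16 in R 4.3.3 over 12774 genes, with a quasi-likelihood test, both directions, and Benjamini-Hochberg adjusted p at 0.05. The SE is the fold change over the square root of F. CPM on the log2 scale used a prior count of 2. The fit was tested on simulated data. FPKM are printed as deposited. Alternatives used DESeq2 1.42.0 and limma 3.58.1. Positions are from GENCODE M21 and promoter windows from RefSeq, both on GRCm38.

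The genes, lists and tests were chosen with earlier results of these data known. The naming rule took all 10 genes, up to 4 genes per wider list with the smallest p and a mean of at least 1 FPKM, 9 genes by role, and 3 near neighbours of each gene that spanned at least 1 on log2 CPM; some of these are not described. The promoter search, the ratios, the SD comparisons and the contrasts and list splits that concern knockout library 1 were added after values were seen.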

Additional observations from a re-analysis of the deposited data

How the results depend on the processing

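Of the 10 genes 0 were called in every alternative run. All genes called numbered 1, which became 0 without knockout library 2 or without wild-type library 3, so 0 to 1 over the libraries left out, and 6 by DESeq2's Wald test. The titles only number the libraries, and correlations of deviations from means of 3 libraries cannot settle whether the numbers pair them. Same-numbered deviations correlated at 0.524, 0.179 and -0.122, and knockout library 3 correlated best with wild-type library 2, at 0.427. With the replicate block 1 gene was called, 0 of the 10 and 0 of the wider lists, and it changed no call. Of 148 alternative fold changes of the 10 genes 137 kept their direction and 11 reversed, and Keap1, Nqo1, Gclc and Srxn1 never reversed. With 1 library left out, log2 fold changes ran from -0.215 to 0.442 for Mt1, -0.359 to 0.667 for Mt2 (both lowest without knockout library 1), -0.119 to 0.101 for Gclm, -0.0335 to 0.283 for Hmox1, -0.00748 to 0.178 for Nfe2l2 and -0.0401 to 0.12 for Txnrd1. They ran from -0.0469 to 0.73 for Gpx3, -0.116 to 0.0214 for Gsr, -0.241 to 0.0113 for Gstp1, -0.228 to 0.278 for Mt3, -0.0134 to 0.159 for Nr3c1 and -0.0356 to 0.079 for Slc30a1. With limma-voom quality weights (0.276 for knockout library 1) they were -0.0962 for Mt1, -0.344 for Mt2, -0.000205 for Gclm, 0.151 for Mt3 and 0.013 for Mtf1. By limma on log2(FPKM + 1) they were 0.0152 for Gsr and 0.0175 for Mt3, and on log2(FPKM + 0.1) 0.0175 for Gsr. The cause was not tested. A filter at a mean of 5 FPKM removed Hmox1 and Gclc. Depth limits Mt2 most, where counting noise alone gives an SD of 0.20 (log2).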
